A study of Mus musculus with 40 samples.

Results

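Interferon-stimulated effector genes are the antiviral and antibacterial genes that cells switch on downstream of interferon, and 50 of them were followed here in mouse blood stem and progenitor cells lacking the histone chaperone Hira. The 50 members were taken by gene symbol and fell into the Ifit, Ifitm, guanylate-binding protein (Gbp), immunity-related GTPase (Irg), Parp and Schlafen (Slfn) families, the ISG15 conjugation system, the Mx proteins, nucleotide and RNA enzymes, Trim and nuclear proteins, and 11 further genes such as Ifi44 and Ifi27. A member was tested in a cell population when it reached 1 FPKM (fragments scaled by gene length and library size) in at least 4 of 8 libraries, or 3 of 6 in the cohort with the GFP reporter. Between 44 and 47 members passed in each population, of 10621 to 13916 genes tested, and 43 passed in all 6 populations. A member that is low everywhere except in the WT libraries can pass this filter through WT alone, so counts over the tested members are descriptions.

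PolyA RNA was sequenced from WT and HIRA KO C57BL/6 bone marrow, sorted into hematopoietic stem cells (HSCs) and multipotent progenitors (MPPs). The first cohort was given poly(I:C) in 2 doses of 20 µg and sorted at 1 week, counted from the earlier dose, as 2500 cells of each type, which made 4 WT and 4 KO libraries for HSCs and as many for MPPs. The reporter cohort is described by the alleles Hirafl/fl, Mx1-Cre, TetOP-H2B-GFP and Rosa26-M2rtTA, without saying whether the WT mice carried all of them. Mice of this cohort drank doxycycline at 2 mg/ml for 6 weeks and received the same poly(I:C) doses. They were killed 15 days after the last dose and 17 days into the chase. HSCs and MPPs were then sorted as H2B-GFP High (label retained, few divisions) or H2B-GFP Low (label diluted), with 3 WT and 3 KO libraries in each of the 4 fractions, called GFP-high and GFP-low below. The treatment is given in the same words for all 40 libraries, so WT and KO mice are both described as having received poly(I:C), a double-stranded RNA mimic that itself induces interferon and through it the Mx1 promoter that drives Cre. The labels give the genotypes as WT and HIRA KO only and do not say whether the WT mice carried Cre or floxed alleles. They also do not say whether HSC and MPP libraries, or GFP-high and GFP-low libraries, came from the same mice, so p-values measure the spread between these libraries.

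Type I interferon binds the Ifnar1-Ifnar2 receptor, which activates the transcription factor complex ISGF3. ISGF3, whose DNA-binding subunit is Irf9, binds the interferon-stimulated response element (ISRE) in the promoters of effector genes. HIRA deposits the histone variant H3.3 at transcribed genes, outside DNA replication. In blood stem cells, interferon signalling is known for driving cells out of quiescence, and a basal level of effector transcripts is present even in uninfected mice.

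The promoters show the letters that ISGF3 and the related IRF factors read. RefSeq promoter windows (GRCm38.p6) were found for 39 of the 50 members, and the 250 bases before each start site were searched for GAAA, any 2 bases and GAAA again, or on the other strand TTTC, any 2 bases and TTTC, overlapping matches included. The motif was present in 18 of the 39 members (46.2%), against 936 of 27025 genes (3.46%). A match is a description of letters and not of binding. The windows below carry members that the results return to; each is written 5′ to 3′ in the direction of transcription, with the motif in capitals. Windows that run into an annotated exon are cut to 30 bases.
Isg15 (chr4:156200860-156200911, minus strand): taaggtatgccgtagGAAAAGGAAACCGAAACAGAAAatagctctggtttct
Ifit1 (chr19:34640770-34640828, plus strand): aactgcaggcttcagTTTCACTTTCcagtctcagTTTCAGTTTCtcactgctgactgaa
Gbp2 (chr3:142620594-142620623, plus strand): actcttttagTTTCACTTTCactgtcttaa
Gbp3 (chr3:142559992-142560021, plus strand): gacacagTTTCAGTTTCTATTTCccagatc
Irgm1 (chr11:48871428-48871457, minus strand): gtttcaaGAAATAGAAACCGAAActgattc
Irgm2 (chr11:58214898-58214937, plus strand): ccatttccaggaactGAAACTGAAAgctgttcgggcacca
Igtp (chr11:58199507-58199546, plus strand): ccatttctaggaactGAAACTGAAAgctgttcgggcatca
Slfn8 (chr11:83020834-83020873, minus strand): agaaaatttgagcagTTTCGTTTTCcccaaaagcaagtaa
Phf11b (chr14:59341356-59341395, minus strand): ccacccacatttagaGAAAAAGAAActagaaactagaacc
Isg15 held 3 overlapping matches and Ifit1 held 2 separate ones. The Irgm2 and Igtp windows, from neighbouring genes of the same family, were identical at 38 of 40 bases. Ifi44, Ifi35, Parp12, Dtx3l, Xaf1 and Isg20 held no match in the 250 bases searched.

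The libraries held 18860000 to 33469000 recovered reads over genes in the first cohort and 5818900 to 9569300 in the reporter cohort. Hira itself did not separate the genotypes: in HSCs it measured 1.45, 0.84, 1.64 and 1.07 FPKM in WT and 1.32, 1.12, 0.72 and 1.28 FPKM in KO, and WT and KO overlapped in the other 5 populations too. The gene-level value sums all exons of Hira and does not show the floxed part, so it checks the genotype labels of no library. Libraries that stood apart were KO replicate 3 of the GFP-low HSCs and of the GFP-high MPPs. The summed FPKM of 8 neutrophil genes was 28907 and 23961 there, against 2065 to 4801 and 3871 to 6277 in the other 5 libraries. Their MPP marker sums were also the highest, at 480 (97.8 to 206 in the other 5 libraries) and 509 (235 to 328). Their HSC marker sums were the lowest, at 301 (411 to 564) and 469 (589 to 694). The erythroid sums were the highest, at 2390 (823 to 1368) and 1943 (741 to 1166). KO replicate 1 of the GFP-low MPPs also stood apart, with a summed FPKM of 116 for mast cell and basophil genes (8.20 to 22.8 in the other 5 libraries), 793 for MPP markers (256 to 479) and 48.3 for macrophage genes (15.1 to 29.1). The members' counts and medians are given with and without them. The differences of the members that the results turn on are given with and without KO replicate 3. Without KO replicate 1 of the GFP-low MPPs, differences are given for Gbp2 and Parp9 only. FPKM values were taken as scaled within each population, which was not tested, so levels are compared within a population only.

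In every population the effector genes as a list lay lower in KO than in WT, while the median of all genes lay near 0. Of the tested members, the KO minus WT difference was below 0 for 40 of 44 (HSCs), 39 of 46 (MPPs), 39 of 47 (GFP-high HSCs), 39 of 45 (GFP-low HSCs), 42 of 46 (GFP-high MPPs) and 41 of 45 (GFP-low MPPs). Among all genes tested the share below 0 was 50.2%, 49.6%, 50.4%, 50.8%, 49% and 49.6% in the same order. The members' median difference on the log2(FPKM + 1) scale was -0.20, -0.23, -0.20, -0.35, -0.28 and -0.30, against a median of all genes between -0.0042 and 0.0043. Without KO replicate 3, the median was -0.21 in GFP-low HSCs, with 36 of 45 members below 0, and -0.27 in GFP-high MPPs, with 39 of 46 below 0. Without KO replicate 1, it was -0.34 in GFP-low MPPs, with 38 of 44 below 0. With the filter lifted, so that all 50 members counted (with a second entry under the symbol Gbp6 in the first cohort), the medians were -0.18, -0.24, -0.19, -0.35, -0.27 and -0.29. The libraries are bulk RNA, in which fewer cells that express a gene and less RNA per cell cannot be told apart.

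**Figure D1:**
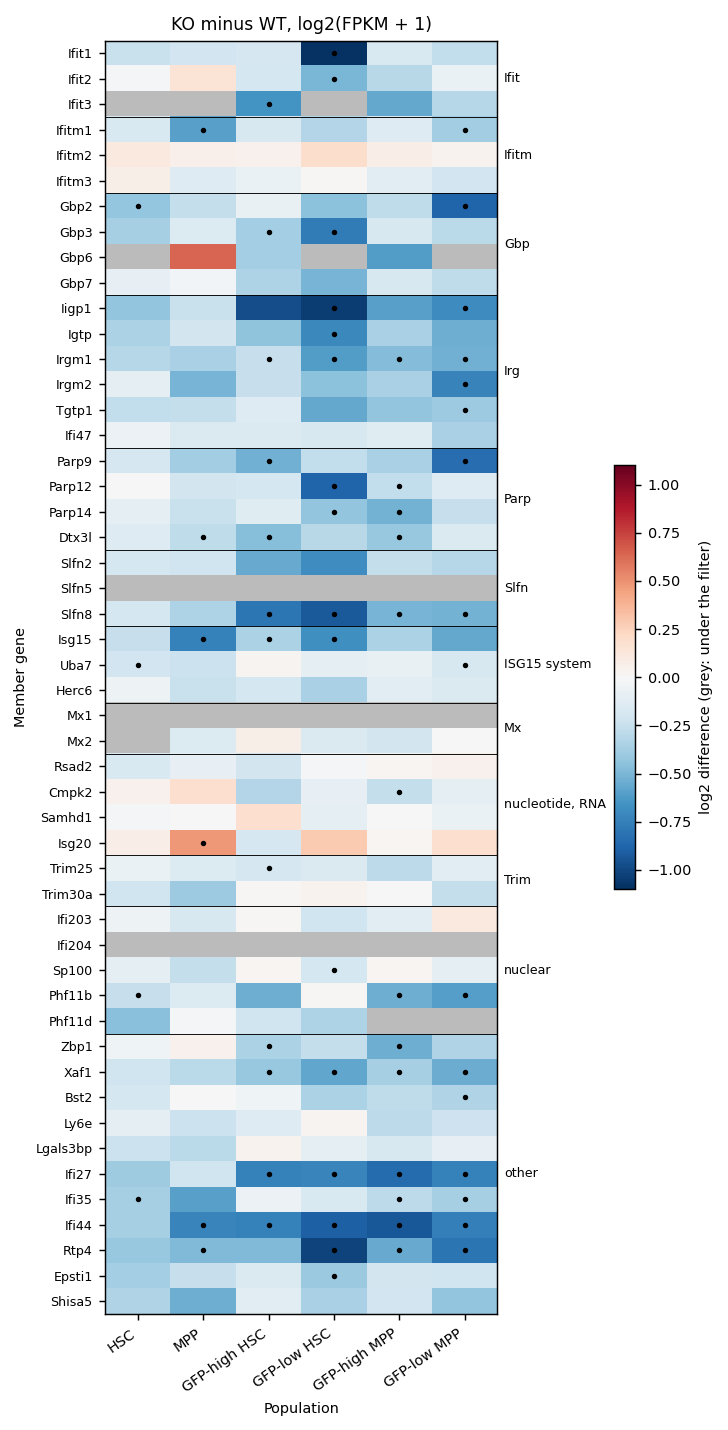
KO minus WT difference on the log2(FPKM + 1) scale for the 50 members (vertical axis, grouped by family) in the 6 cell populations (horizontal axis). Grey marks a member under the filter, and a black dot marks a member whose WT and KO libraries do not overlap in either direction; 27 of the 43 members tested in all 6 populations are below 0 in each.

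Few members passed a test of their own. By limma on log2(FPKM + 1), with Benjamini-Hochberg adjustment over all genes tested, 0 members passed an adjusted p of 0.05 in the first 5 populations, where 0.124% (HSCs), 0.108% (MPPs), 0.0276% (GFP-high HSCs), 0% (GFP-low HSCs) and 0% (GFP-high MPPs) of all genes did. In GFP-low MPPs 2 members passed, Parp9 and Gbp2, both lower in KO, where 0.32% of all genes were called and 0.0942% were called lower. At an unadjusted limma p under 0.05, the members lower in KO numbered 14 in HSCs (5.21% of all genes), 10 in MPPs (7.79%), 14 and 16 in the GFP-high and GFP-low HSCs (4.72% and 3.9%), and 11 and 16 in the GFP-high and GFP-low MPPs (3.48% and 6.16%). At the same cut 1 member, Isg20, was higher in KO, in MPPs, and 0 in the other populations; of all genes, 4.87%, 8.77%, 5.64%, 4.67%, 3.61% and 6.12% were higher.

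The separation of the libraries was also counted, without a model. Every KO library lay below every WT library for 4 of 44 members in HSCs (3.39% of all genes), 5 of 46 in MPPs (4.84%), 12 of 47 and 16 of 45 in the GFP-high and GFP-low HSCs (7.47% and 6.42%), and 13 of 46 and 16 of 45 in the GFP-high and GFP-low MPPs (6.59% and 9.33%). The reverse, every KO library above every WT library, held for Isg20 in MPPs (5.08% of all genes) and for 0 tested members in the other populations (2.81%, 8.61%, 7.67%, 6.74% and 9.73% of all genes in the order used above). Leaving out a library makes separation easier for every gene. The ends of each range, and some counts between them, are therefore set beside the share of all genes in the same libraries. In HSCs the count was then 5 to 11. It was 11 without WT replicate 3 (5.43% of all genes) and 7 without KO replicate 1 (5.19%). The low end of 5 came without WT replicate 1 (5.73%) or WT replicate 2 (5.36%). In MPPs it was 5 to 13. It was 13 without KO replicate 4 (9.42%) and 9 without WT replicate 3 (6.86%). The count was 8 without WT replicate 2 (7.17%) or KO replicate 2 (6.56%). It was 5 without WT replicate 1 (7.47%) or WT replicate 4 (5.8%). For GFP-high HSCs it was 13 to 21. It was 21 without KO replicate 1 (12.8%), 20 without WT replicate 1 (11.8%) and 19 without WT replicate 3 (12.3%). The count was 16 without KO replicate 3 (14.4%) and 13 without WT replicate 2 (11.8%). For GFP-low HSCs it was 18 to 24. It was 24 without KO replicate 1 (13%) and 18 without KO replicate 2 (12.1%) or KO replicate 3 (14.3%). For GFP-high MPPs it was 14 to 23. It was 23 without WT replicate 3 (10.5%) and 21 without KO replicate 1 (12.2%). The count was 15 without KO replicate 3 (13.8%) and 14 without WT replicate 2 (10.9%). For GFP-low MPPs it was 17 to 24. It was 24 without KO replicate 3 (14.5%) and 20 without KO replicate 1 (16.7%). The count was 18 without KO replicate 2 (16.7%) and 17 without WT replicate 2 (13.5%).

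Leaving out the libraries with high neutrophil genes moved single members, and in GFP-low HSCs most moved toward or past 0. The members' median went from -0.35 to -0.21 there and from -0.28 to -0.27 in GFP-high MPPs. In GFP-low HSCs Gbp7 went from -0.51 to -0.13, Gbp2 from -0.45 to -0.23, Shisa5 from -0.35 to 0.07 and Phf11b from 0.02 to 0.41. Ifit1 (from -1.09), Ifit2 (from -0.50) and Parp12 (from -0.88) went further below 0. In GFP-low MPPs without KO replicate 1, 17 members were lower at an unadjusted limma p under 0.05 (8.49% of all genes). At the same cut, 15 members were lower in GFP-low HSCs without KO replicate 3 (5.88% of all genes) and 9 in GFP-high MPPs (5.32%). In GFP-low HSCs the difference without that library was -0.56 for Ifi44 (from -0.89), -1.49 for Ifit1, -0.68 for Ifit2, -1.04 for Parp12, -1.01 for Rtp4, -0.83 for Ifi27, -0.76 for Iigp1, -0.73 for Gbp3, -0.70 for Slfn8, -0.53 for Igtp, -0.52 for Irgm1, -0.51 for Isg15, -0.49 for Xaf1 and 0.25 for Isg20. In GFP-high MPPs it was -1.04 for Ifi27, -0.97 for Ifi44, -0.60 for Rtp4, -0.54 for Phf11b, -0.49 for Irgm1, -0.47 for Parp14, -0.38 for Slfn8 and -0.30 for Xaf1. Slfn2 went to -1.08 in GFP-low HSCs (from -0.68) and -0.64 in GFP-high MPPs (from -0.26). Values with all libraries follow.

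**Figure D2:**
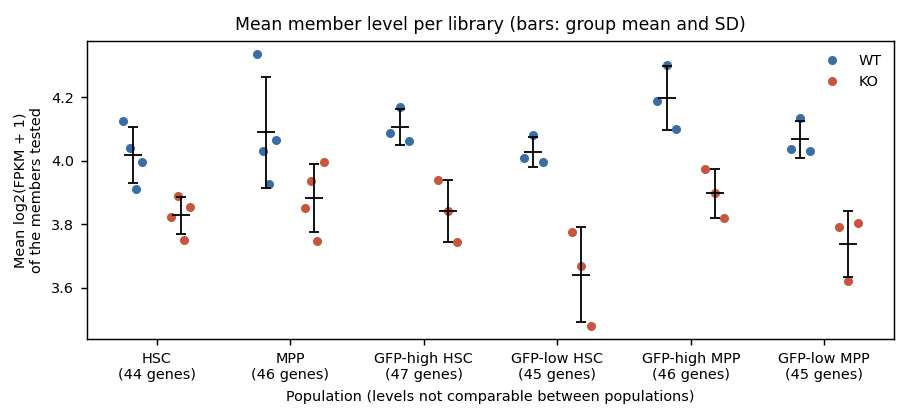
Mean log2(FPKM + 1) of the tested members in each library (points), with the group mean and SD (bars), for WT and KO in the 6 populations. WT and KO libraries do not overlap except in MPPs, where WT spans 3.93 to 4.33 and KO spans 3.75 to 4.00; levels are not comparable between populations.

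Averaged over the tested members, the libraries separated by genotype in 5 of the 6 populations. The mean log2(FPKM + 1) of the members ran from 3.91 to 4.12 in WT HSCs and from 3.75 to 3.89 in KO HSCs. The ranges were 3.99 to 4.08 against 3.48 to 3.78 for GFP-low HSCs, and 4.03 to 4.13 against 3.62 to 3.80 for GFP-low MPPs. The GFP-high fractions held 4.06 to 4.17 against 3.74 to 3.94 (HSCs) and 4.10 to 4.30 against 3.82 to 3.97 (MPPs). In MPPs the highest WT library, replicate 1, reached 4.33, and the lowest WT library, at 3.93, lay within the KO range.

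Some members were lower in KO in nearly every population. Of the 43 members tested in all 6, 27 (62.8%) had a difference below 0 in all 6, against 748 of 9341 genes (8.01%). The members share induction by interferon and the populations may share mice, so counts over either are not counts of separate observations. The list was also chosen with earlier results of these data known. Every KO library lay below every WT library in 3 or more populations for 10 members (23.3%), against 212 genes (2.27%). These were Ifi44 in 5 populations, Ifi27, Irgm1, Rtp4, Slfn8 and Xaf1 in 4, and Dtx3l, Ifi35, Isg15 and Phf11b in 3. For Ifi27, Irgm1, Slfn8 and Xaf1 the 4 were the reporter fractions, whose libraries may come from the same mice. Their groups overlapped in both cell types of the first cohort. At the other end, Ifitm2 was below 0 in none of the 6 and Isg20 in 1.

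Ifi44, a cytoplasmic protein induced by interferon (chr3:151730922-151749960, minus strand), had the lowest median difference over the 6 populations, -0.75. In GFP-high MPPs it measured 8.88, 10.2 and 9.4 FPKM in WT and 4.67, 4.03 and 4.84 FPKM in KO. The lowest WT library was well above the highest KO library there, with a log2 difference of -0.93 ± 0.13 (SE, limma, adjusted p = 0.128). In MPPs of the first cohort it measured 8.87, 8.15, 6.12 and 9.2 FPKM in WT and 3.5, 4.77, 4.44 and 5.18 FPKM in KO, a log2 difference of -0.73 ± 0.16 (SE, limma, adjusted p = 0.0686). GFP-high HSCs showed the same separation, with 8.71, 9.61 and 10.3 FPKM in WT and 6.51, 4.55 and 4.95 FPKM in KO. In GFP-low HSCs the values were 5.73, 7.62 and 8.66 FPKM in WT and 5.5, 3.8 and 1.79 FPKM in KO, so the groups were separated by a narrow margin and the lowest value was that of KO replicate 3. In GFP-low MPPs they were 5.77, 6.79 and 7.64 FPKM against 3.98, 2.17 and 5.06 FPKM. HSCs of the first cohort were the exception: WT held 7.14, 5.72, 4.92 and 6.68 FPKM and KO held 3.53, 4.67, 5.08 and 4.75 FPKM, and the lowest WT library lay within the KO range.

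Ifi27, a small membrane protein (chr12:103434211-103440239, plus strand), separated the genotypes in all 4 reporter fractions. WT libraries of the GFP-low HSCs held 68.4, 81.3 and 73.1 FPKM and KO libraries 40.4, 41.9 and 51.4 FPKM, a log2 difference of -0.73 ± 0.14 (SE, limma, adjusted p = 0.183). The differences in the other fractions were close to that, -0.74 (GFP-high HSCs), -0.85 (GFP-high MPPs) and -0.74 (GFP-low MPPs). In the first cohort the groups overlapped in both cell types, with differences of -0.39 in HSCs and -0.22 in MPPs.

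Rtp4, a chaperone-like protein of receptor transport (chr16:23520291-23614222, plus strand), showed its lowest difference in GFP-low HSCs. It measured 18.3, 21 and 22.2 FPKM in WT and 12.9, 7.07 and 9.45 FPKM in KO, a log2 difference of -1.02 ± 0.20 (SE, limma, adjusted p = 0.216). In GFP-low MPPs it measured 27, 39.5 and 36.7 FPKM against 21.1, 13.1 and 24.7 FPKM, and the lowest WT library lay just above the highest KO library. It was also separated in GFP-high MPPs and in MPPs, at -0.55 and -0.49.

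**Figure D3:**
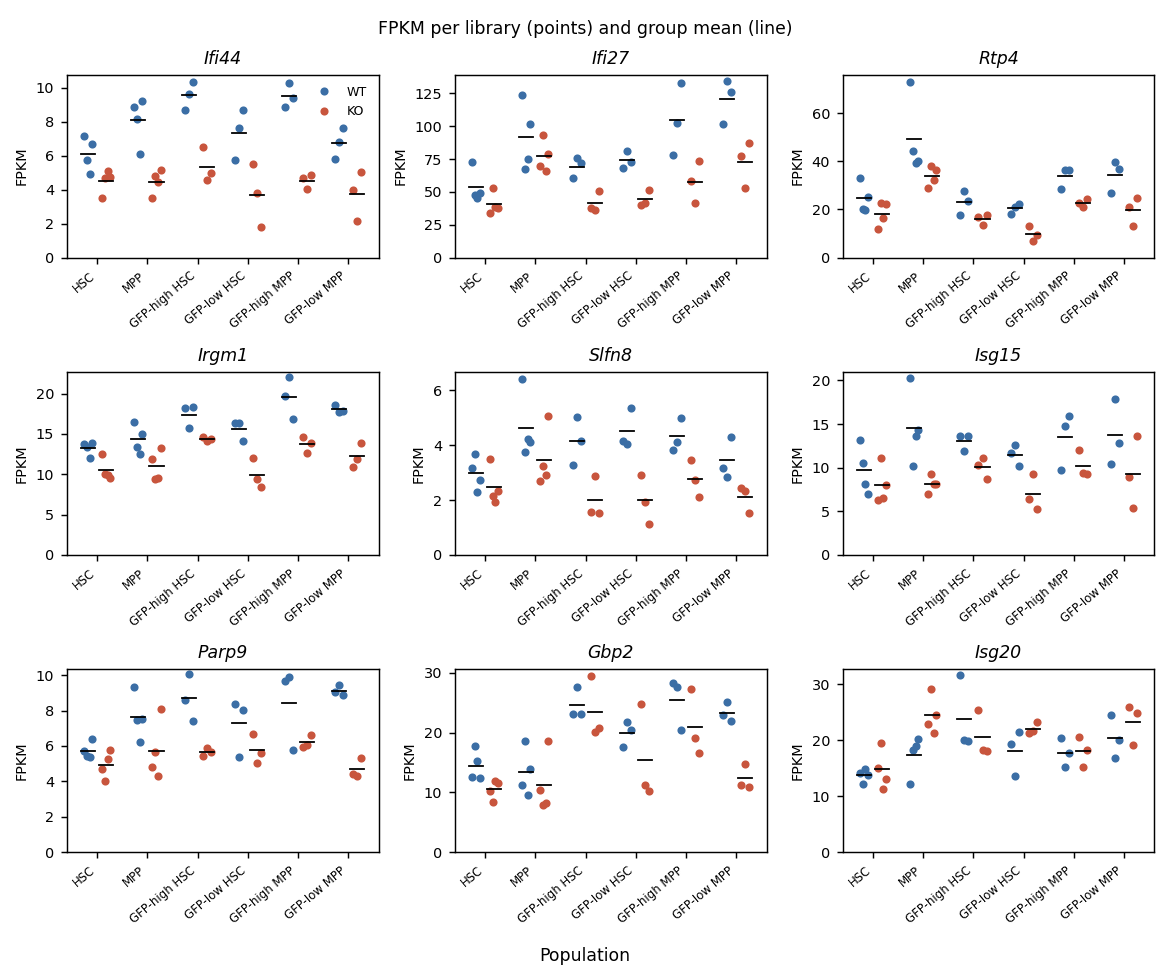
FPKM per library (vertical axis) of Ifi44, Ifi27, Rtp4, Irgm1, Slfn8, Isg15, Parp9, Gbp2 and Isg20 in WT and KO (points) in the 6 populations (horizontal axis). Ifi44 in GFP-high MPPs spans 8.88 to 10.2 FPKM in WT and 4.03 to 4.84 FPKM in KO, and Isg20 in MPPs is the opposite case, with KO above WT; levels are not comparable between populations.

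The Irg family, GTPases that mark and disrupt the vacuoles of intracellular pathogens, had all 6 members below 0 in all 6 populations, with family medians of -0.29, -0.25, -0.25, -0.59, -0.40 and -0.53 in the order used above. Irgm1, a regulator that restrains the other Irg proteins (chr11:48861968-48871683, minus strand), measured 18.6, 17.7 and 17.8 FPKM in WT and 10.9, 11.8 and 13.9 FPKM in KO in GFP-low MPPs. That gap was wider than the spread in either group, with a log2 difference of -0.53 ± 0.12 (SE, limma, adjusted p = 0.13). The GFP-low HSCs held 16.4, 16.4 and 14.1 FPKM against 12, 9.36 and 8.47 FPKM, and the difference was -0.61 (adjusted p = 0.346). It was separated at -0.26 in GFP-high HSCs and -0.48 in GFP-high MPPs, and overlapped in the first cohort, where a single KO library reached into the WT range in each cell type.

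Among the other Irg genes, Irgm2 and Iigp1 separated in GFP-low MPPs. Irgm2, another regulator, measured 6.28, 6.44 and 5.84 FPKM in WT and 4.3, 3.22 and 2.6 FPKM in KO, a log2 difference of -0.73 (limma, adjusted p = 0.121). Iigp1, an effector GTPase, measured 6.48, 4.46 and 4.18 FPKM in WT and 2.75, 2.7 and 2.65 FPKM in KO, a difference of -0.69 (adjusted p = 0.155). Iigp1 was also lower in every KO library of the GFP-low HSCs, where WT held 8.5, 6.75 and 4.51 FPKM and KO held 3.22, 3.52 and 1.41 FPKM. The WT libraries spread over a wider range than the gap between the groups. Igtp separated in GFP-low HSCs (-0.71) and Tgtp1 in GFP-low MPPs (-0.40), while Ifi47 overlapped in all 6 populations with differences of -0.06 to -0.36. Irgm2 and Igtp overlap in the annotation and Tgtp1 has a near-identical copy, Tgtp2, so reads may have been shared within these pairs.

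Gbp2, a guanylate-binding GTPase that assembles on pathogen membranes (chr3:142620602-142638008, plus strand), was 1 of the 2 members called. In GFP-low MPPs it measured 23, 25.1 and 22 FPKM in WT and 11.3, 14.7 and 11 FPKM in KO. The groups lay well apart, and the log2 difference was -0.88 ± 0.14 (SE, 95% interval -1.19 to -0.57, limma, adjusted p = 0.0468). The call ended without any 1 of the 6 libraries, WT or KO, with adjusted p from 0.0745 to 0.224, and over all alternatives the adjusted p ran from 0.0354 to 0.224. Without KO replicate 1 the difference was -0.82 (limma, adjusted p = 0.0844). Gbp2 was also separated in HSCs, at 12.6, 17.8, 15.2 and 12.4 FPKM in WT and 10.2, 8.46, 11.8 and 11.6 FPKM in KO (-0.43, adjusted p = 0.32). In GFP-low HSCs it was not: KO replicate 1 measured 24.9 FPKM, above all 3 WT libraries, and the other KO libraries measured 11.2 and 10.3 FPKM.

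Gbp3 followed Gbp2 in direction. In GFP-low HSCs it measured 12.4, 10 and 9.54 FPKM in WT and 6.79, 5.31 and 5.42 FPKM in KO, with no overlap and a log2 difference of -0.77 (limma, adjusted p = 0.239). Gbp7 was below 0 in all 6 populations and overlapped in each, at -0.03 to -0.51. Gbp6 behaved unlike the rest of the family. In MPPs it measured 2.4, 2.52, 1.73 and 1.51 FPKM in WT and 9.49, 7.8, 1.3 and 1.29 FPKM in KO, so that KO replicates 1 and 2 were far above all others, and the same replicate numbers were the highest in HSCs, at 2.67 and 1.88 FPKM. In the reporter cohort replicate 1 was the highest of both genotypes in each fraction, for example 5.39, 1.53 and 0.846 FPKM in WT and 3.35, 0.261 and 0.516 FPKM in KO in GFP-high MPPs. The first-cohort values are from the higher of the 2 entries carrying the symbol Gbp6, and Gbp6 has close paralogs among which reads may be split.

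Parp9, an ADP-ribosyltransferase that works with the ubiquitin ligase Dtx3l (chr16:35938470-35972605, plus strand), was the other member called. In GFP-low MPPs it measured 9.05, 9.42 and 8.9 FPKM in WT and 4.43, 4.29 and 5.31 FPKM in KO. The WT libraries lay within 1 FPKM of each other, and the log2 difference was -0.84 ± 0.13 (SE, 95% interval -1.13 to -0.55, limma, adjusted p = 0.0421). As for Gbp2, the call ended without any 1 of the 6 libraries, with adjusted p from 0.0793 to 0.228, and over all alternatives the adjusted p ran from 0.0287 to 0.228. Without KO replicate 1 the difference was -0.81 (limma, adjusted p = 0.0793). Parp9 was separated in GFP-high HSCs as well, at 8.61, 10 and 7.39 FPKM against 5.45, 5.86 and 5.65 FPKM (-0.53, adjusted p = 0.252).

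All 4 members of the Parp group were below 0 in all 6 populations, with medians of -0.13, -0.27, -0.33, -0.37, -0.39 and -0.21 in the order used above. Dtx3l (chr16:35926511-35939151, minus strand) overlaps the start of Parp9 on the opposite strand, and the sources used here do not say whether counting used strand. In MPPs Dtx3l measured 17.6, 16, 14.6 and 15.6 FPKM in WT and 12.4, 12.5, 12.9 and 13.8 FPKM in KO, without overlap (-0.28, limma, adjusted p = 0.233). Parp12, a mono-ADP-ribosyltransferase, measured 5.33, 6.2 and 6.3 FPKM in WT and 2.43, 2.31 and 3.72 FPKM in KO in GFP-low HSCs. That was its lowest difference, -0.88 (adjusted p = 0.239), against -0.14 in GFP-low MPPs and -0.004 in HSCs. Parp14, a macrodomain enzyme, separated in GFP-high MPPs, at 4.4, 4.15 and 3.6 FPKM against 2.56, 2.72 and 2.28 FPKM (-0.52, adjusted p = 0.52).

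Schlafen genes encode RNA-binding proteins of immune cells. Slfn8 (chr11:83002158-83020810, minus strand) separated the genotypes in all 4 reporter fractions. Its values in the GFP-low HSCs were 4.16, 4.06 and 5.35 FPKM in WT and 2.9, 1.91 and 1.14 FPKM in KO, a log2 difference of -0.92 (limma, adjusted p = 0.346), and in GFP-high HSCs 3.27, 5.01 and 4.15 FPKM against 1.58, 2.89 and 1.54 FPKM (-0.79, adjusted p = 0.271). The KO libraries themselves differed by over 1 FPKM in both. Slfn2, needed for the quiescence of lymphocytes, was below 0 in all 6 populations but overlapped in each; without KO replicate 3 it separated in GFP-low HSCs and GFP-high MPPs. In GFP-high HSCs its WT libraries held 47.5, 54.5 and 24.8 FPKM and its KO libraries 36.7, 17.8 and 29.8 FPKM. Slfn5 stayed under the filter in all 6 populations.

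Isg15, a ubiquitin-like modifier conjugated to proteins by Uba7 and Herc6 (chr4:156199424-156200818, minus strand), was below 0 in all 6 populations and separated in 3. In MPPs it measured 20.2, 10.2, 13.7 and 14.3 FPKM in WT and 6.94, 9.29, 8.1 and 8.1 FPKM in KO. WT replicate 1 was the highest and the nearest libraries of the groups were less than 1 FPKM apart, and the log2 difference was -0.74 ± 0.18 (SE, limma, adjusted p = 0.0956). The GFP-low HSCs held 11.7, 12.6 and 10.2 FPKM against 6.38, 9.3 and 5.21 FPKM (-0.67, adjusted p = 0.435). The enzymes of the system lay nearer to 0: Uba7, the activating enzyme, ranged from -0.24 to 0.03 over the populations and Herc6, the ligase, from -0.35 to -0.05. Every KO library lay below every WT library for Uba7 in 2 populations. Without KO replicate 3, Uba7 was separated upward in GFP-high MPPs, at 0.16.

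The Ifit proteins bind viral RNA. Ifit1, which recognises incompletely capped RNA, measured 3.5, 4.51 and 5.12 FPKM in WT and 0.938, 0.858 and 3.41 FPKM in KO in GFP-low HSCs. KO replicates 1 and 2 lay far under WT and KO replicate 3 just under it, on 23 to 153 reads per library, and the log2 difference was -1.09 ± 0.32 (SE, limma, adjusted p = 0.441). In the other 5 populations Ifit1 overlapped, at -0.27 to -0.16. Ifit2 separated in GFP-low HSCs too (-0.50), was at 0.15 in MPPs and, in HSCs, at -0.01, where it lay above 0 without WT replicate 1 or KO replicates 2 or 3. Ifit3 passed the filter in 3 populations, each on few reads, and shares sequence with a second copy, Ifit3b.

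The Ifitm proteins, which hold viruses in endosomes and at the membrane, were the most abundant members per length in every population and differed among themselves. Ifitm1 was below 0 in all 6 populations. In MPPs it measured 1172, 597.7, 623.3 and 571.3 FPKM in WT and 480, 479.6, 463.6 and 440.3 FPKM in KO, with no overlap and WT replicate 1 far above the rest (-0.60, limma, adjusted p = 0.206). In GFP-low MPPs it measured 561.5, 707.8 and 618 FPKM against 523.9, 428.7 and 491.3 FPKM (-0.38, adjusted p = 0.286). Ifitm2 was above 0 in all 6 populations, by 0.04 to 0.19, with overlap in each, and in MPPs its difference of 0.06 became -0.02 with libraries rescaled to the same total. Ifitm3 lay between -0.21 and 0.06.

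The Mx proteins, dynamin-like GTPases, were barely expressed. Mx1 stayed under the filter in all 6 populations. In GFP-low HSCs it measured 0.271, 0.745 and 0.459 FPKM in WT and was listed at 0 in all 3 KO libraries, on at most 12 reads. Mx2 passed in 5 populations at differences of -0.20 to 0.06, with overlap in each. C57BL/6 mice are known to carry defective Mx1 alleles.

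The enzymes that act on nucleotides and RNA had medians of 0.01, 0.09, -0.19, -0.06, 0.01 and -0.01 in the order used above. Rsad2 (viperin, which makes a chain-terminating nucleotide), its neighbour Cmpk2 (a mitochondrial nucleotide kinase) and Samhd1 (which degrades deoxynucleotides) ranged from -0.32 to 0.19 over the populations. Isg20, a 3′ to 5′ exonuclease (chr7:78913424-78920396, plus strand), went the other way in MPPs, with 12.2, 18.2, 19 and 20.1 FPKM in WT and 22.8, 29.2, 21.2 and 24.5 FPKM in KO. Every KO library was above every WT library, at a log2 difference of 0.48 ± 0.16 (SE, limma, adjusted p = 0.196). The groups overlapped once libraries were rescaled to the same total, so that 0 members were then separated upward in MPPs. It was also above 0 in GFP-low HSCs (0.29) and GFP-low MPPs (0.19), with overlap.

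Among the remaining members, Ifi35, a partner of the adaptor Nmi (chr11:101448407-101458698, plus strand), had the smallest p in HSCs. It measured 18.7, 19.4, 19.3 and 20.6 FPKM in WT and 14.3, 15.6, 14.6 and 15.1 FPKM in KO. Both groups were tight and well apart, and the log2 difference was -0.37 ± 0.08 (SE, limma, adjusted p = 0.141). In MPPs it measured 25.2, 16.6, 24.2 and 27.9 FPKM against 13.2, 15.1, 13.2 and 18.9 FPKM, where WT replicate 2 lay within the KO range (-0.60, adjusted p = 0.14). In GFP-high and GFP-low HSCs the difference was -0.07 and -0.16, with overlap.

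Xaf1, which antagonises the apoptosis inhibitor XIAP, separated in all 4 reporter fractions; in GFP-low HSCs it measured 8.5, 8.14 and 7.04 FPKM in WT and 5.83, 4.84 and 4.29 FPKM in KO (-0.58, limma, adjusted p = 0.402). Phf11b, a PHD finger protein, measured 20.1, 21.3 and 18.6 FPKM in WT and 12.7, 14.2 and 13.3 FPKM in KO in GFP-high MPPs, and the groups were over 4 FPKM apart (-0.54, adjusted p = 0.397). Epsti1 measured 21.7, 19.9, 14.8 and 17.2 FPKM in WT and 12.7, 14.9, 12.5 and 15.3 FPKM in KO in HSCs (-0.38, adjusted p = 0.339), and a single WT library reached into the KO range. The surface proteins Bst2 (tetherin) and Ly6e, the nuclear proteins Sp100 and Ifi203, and Trim25 and Trim30a ranged from -0.40 to 0.11. Ifi204 stayed under the filter in all 6 populations, Phf11d in the MPP fractions of the reporter cohort, Gbp6 in HSCs and both GFP-low fractions, Mx2 in HSCs, and Ifit3 in HSCs, MPPs and GFP-low HSCs.

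Whether the KO effect differed between cell populations was tested directly, and no member passed. The difference of KO effects was fitted by limma for MPPs against HSCs, for GFP-low against GFP-high in each cell type, and for MPPs against HSCs in each GFP fraction. Over these 5 contrasts 0 members passed an adjusted p of 0.05 (limma; 0.0076% of all genes in the first contrast and 0% in the other 4), and 0, 2, 1, 0 and 2 members had an unadjusted p under 0.05, where 7.84%, 3.35%, 2.7%, 2.74% and 4.56% of all genes did. The smallest adjusted p of a member was 0.662, for Irgm2 in MPPs against HSCs. For GFP-low against GFP-high HSCs, Parp12 was at -0.69 (95% interval -1.26 to -0.11, limma, adjusted p = 0.999) and Ifit1 at -0.90 (-1.72 to -0.08, adjusted p = 0.999). For Gbp2 in GFP-low against GFP-high MPPs the estimate was -0.60 (-1.15 to -0.04, adjusted p = 0.999). For GFP-low MPPs against GFP-low HSCs, Parp12 was on the other side of 0, at 0.74 (0.10 to 1.37, limma, adjusted p = 0.972), and Parp9 was at -0.57 (-1.06 to -0.07, adjusted p = 0.972). These intervals are wide, and a p that misses the threshold does not show that the effects were alike.

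**Figure D4:**
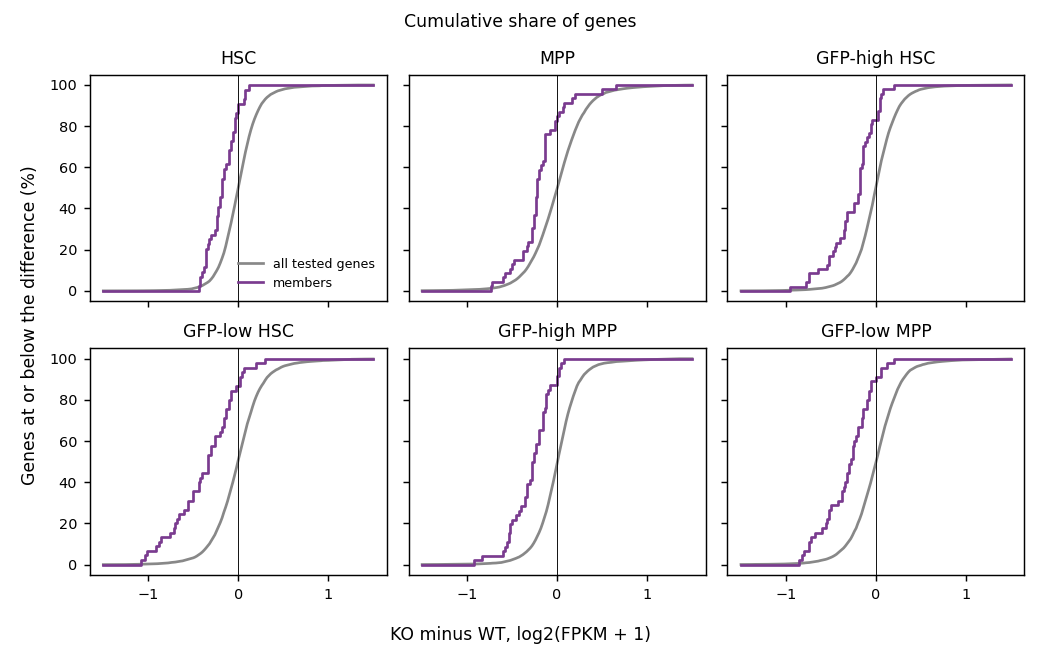
Cumulative share of genes (vertical axis) by KO minus WT difference on the log2(FPKM + 1) scale (horizontal axis), for the tested members and for all genes tested, in each of the 6 populations. The curve of the members lies to the left of that of all genes, with medians from -0.20 to -0.35 against medians near 0.

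The promoter motif did not sort the members by their difference in a uniform way. The median difference of members with and without the motif was -0.23 and -0.14 (HSCs), -0.21 and -0.24 (MPPs), -0.25 and -0.18 (GFP-high HSCs), -0.48 and -0.30 (GFP-low HSCs), -0.28 and -0.21 (GFP-high MPPs), and -0.33 and -0.17 (GFP-low MPPs), over 16 or 17 members with it and 20 or 21 without. These are descriptions with no test. Of the members named for separation in 3 or more populations, Isg15, Irgm1, Slfn8 and Phf11b carry the motif in the windows printed above, while Ifi44, Xaf1, Dtx3l and Ifi35 have no match. For Ifi27 and Rtp4 no promoter window was found, so they were not searched.

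Upstream of the effectors, the receptor and signalling genes held the same direction in part. Of 19 listed genes, the number below 0 was 13 of 18 tested (HSCs), 15 of 19 (MPPs), 13 of 19 (GFP-high HSCs), 14 of 19 (GFP-low HSCs), 12 of 19 (GFP-high MPPs) and 16 of 19 (GFP-low MPPs), and 0 passed the adjusted limma test in any. Irf9, the DNA-binding subunit of ISGF3, ranged from 15.4 to 17.9 FPKM in WT and from 9.66 to 10.7 FPKM in KO in GFP-low MPPs (-0.63, limma, adjusted p = 0.0858), without overlap. The receptor gene Ifnar1 lay at -0.03 and -0.04 in the GFP-low fractions, with overlap.

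The sensors and oligoadenylate synthetases, which detect foreign RNA and DNA, also lay mostly below 0, in 14 of 17, 18 of 18, 14 of 16, 13 of 16, 15 of 16 and 15 of 16 tested genes in the order used above. Every KO library was below every WT library for 3, 2, 4, 4, 8 and 11 of them, where 3.39%, 4.84%, 7.47%, 6.42%, 6.59% and 9.33% of all genes were. Oas3, which makes the activator of RNase L, passed in GFP-low MPPs, at 6.41 ± 0.33 FPKM (SD, n = 3) in WT and 3.30 ± 0.0567 FPKM (SD, n = 3) in KO, a log2 difference of -0.78 (limma, adjusted p = 0.0468). The call ended without WT replicate 2, WT replicate 3 or KO replicate 2, where no gene passed in GFP-low MPPs. Only 1 gene passed without KO replicate 3 and 2 without the filter, and whether Oas3 was among them is not given here.

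Markers of other cells moved with the genotype in some populations, and their part in the effector gene differences was not tested. The summed FPKM of the erythroid list was 823 to 850 in WT and 1311 to 2390 in KO in GFP-low HSCs, with all 8 tested genes above 0. In GFP-low MPPs it was 875 to 1366 in WT and 1864 to 2269 in KO, again with 8 of 8 above 0, and Gata1, Epor and Car2 passed the limma test as higher. These calls ended without WT replicate 2, WT replicate 3 or KO replicate 2, where no gene passed. Without KO replicate 3 only 1 gene passed, and without the filter only 2 passed, so not all 3 calls held there. In MPPs the erythroid sum overlapped, at 511 to 5750 against 1867 to 10295, with 10 of 10 above 0. The HSC marker sum there was 343 to 415 in WT and 257 to 307 in KO, with 7 of 7 tested genes below 0. Other sums did not overlap in MPPs. The mast cell and basophil sum was 7.31 to 18.1 in WT and 22.7 to 73.6 in KO. Of its tested genes, 4 of 4 were above 0 and Cpa3 was called higher. The MPP marker sum was 326 to 426 in WT and 450 to 472 in KO, but 3 of its 6 tested genes lay below 0. The Cpa3 call ended without WT replicate 2, without WT replicate 4 and without the filter, where no gene passed in MPPs. Without WT replicate 1 only 1 gene passed, and whether it was Cpa3 is not given here. In GFP-high MPPs the erythroid sum was 741 to 984 in WT and 1051 to 1943 in KO, and the macrophage sum 16.6 to 21.9 against 22.6 to 33.8. In GFP-low MPPs the HSC marker sum was 445 to 484 against 321 to 419, with 5 of 8 tested genes below 0. In GFP-high HSCs the neutrophil sum was 5431 to 7312 against 4267 to 5420, also with 5 of 8 below 0. The neutrophil sum was high in KO replicate 3 of the GFP-low HSCs and of the GFP-high MPPs, as given above, and all 8 neutrophil genes were above 0 in both comparisons. In GFP-low HSCs the B cell sum was 29.5 to 33.3 in WT and 34.6 to 54.6 in KO. In HSCs the mast cell and basophil sum was 10.5 to 11.9 in WT and 13.2 to 19.1 in KO, and the macrophage sum was 16.0 to 23.1 in WT and 31.7 to 33.5 in KO, with 4 of 4 tested genes above 0 and 3 of its 8 genes under 1 FPKM in every library. The HSC list was detected throughout, with 10 of 10 genes tested in the HSC populations.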

How the data were processed

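The deposited tables hold 1 FPKM value per gene and library in 6 populations. Named in the submitters' processing notes, without roles or versions, are the genome build mm10 and the tools HOMER, DESeq2 and STAR, and whether counting used strand is not given in the sources used here. Per the file headers the values are FPKM. Their low values step in whole reads: reads recovered at a tolerance of 0.0001 were whole for 100% of genes in the first cohort and 99.994% in the reporter cohort, which gave the depths. Relative to the first library of a population, the depths from these steps could differ from the read totals, as in WT replicate 4 of the MPPs (1.59 against 1.45). The values were thus not scaled by the recovered total alone. Depths were only compared within a population, so they cannot tell whether scaling was shared between populations.

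Values were tested as log2(FPKM + 1) with limma 3.58.1 in R 4.3.3 (empirical Bayes with a trend, two-sided), for genes at 1 FPKM or more in at least 4 of 8 or 3 of 6 libraries, with Benjamini-Hochberg adjustment over all genes tested and a threshold of 0.05; scripts were tested on simulated data. Fold changes on this scale understate the change of low genes. Genes named are members past the threshold, the 5 members with the smallest p in each population, the most abundant member of each family in the first cohort, and members under the filter; other members are named by family or by the count of populations in which the groups do not overlap. The members and the gene lists were chosen with earlier results of these data known. Replicate numbers were not used as pairs. Gene positions are from GENCODE M21 (GRCm38), promoter sequences from RefSeq (GRCm38.p6). Alternatives tried are a pseudocount of 0.1, no filter, libraries rescaled to the same total, each replicate left out, a replicate block, array weights, voom on the recovered reads, and a joint fit of the populations of a cohort. A single gene of the signalling list is not reported here by name.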

Additional observations from a re-analysis of the deposited data

Results flagged for a closer look

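Among 106 groups of 4 libraries of named members in the first cohort, 4 held a library whose gap to its nearest neighbour, divided by the range of the group, passed the 95% critical value of Dixon's test for groups of 4; chance gives about 1 group in 20. Rtp4 measured 72.7 FPKM in WT replicate 1 of the MPPs, against 39.4 to 44.4 FPKM in the other WT libraries. Ifi27 measured 72.8 FPKM in WT replicate 1 of the HSCs, against 45.7 to 49.6 FPKM. Uba7 measured 19.1 FPKM in WT replicate 2 of the HSCs, against 13.9 to 14.1 FPKM. Gbp3 measured 8.89 FPKM in KO replicate 1 of the MPPs, against 7.86 to 7.98 FPKM.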

How the results depend on the processing

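The members' median difference stayed below 0 in all 6 populations under every alternative run. The difference of KO effects between populations was refitted only with a pseudocount of 0.1, with libraries rescaled and with the replicate block. Each of these gave 0 members called. The calls of single members were less stable. In GFP-low MPPs the number of members called was 2, and it was 1 with a pseudocount of 0.1 (Parp9), 0 without the filter, 0 with libraries rescaled to the same total and 0 in each of the 6 fits that leave out a replicate. In MPPs it was 0, and it was 2 with array weights (Ifi35 and Ifi44; 1.77% of all genes), 1 with voom (Ifi44; 0.819%), 3 in the joint fit (Ifi35, Ifi44 and Isg15; 4.25%) and 0 to 2 with a replicate left out, the 2 being Shisa5 and Ifi44 without KO replicate 4 (1.5%). In GFP-low HSCs it was 0, and 3 in the joint fit (Irgm1, Parp12 and Rtp4; 0.502%). In the other populations it was 0 under every alternative. The cause of these changes was not tested.

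The median difference in GFP-high MPPs was -0.19 with libraries rescaled. With a replicate left out it ran from -0.23 to -0.14 in HSCs, -0.28 to -0.17 in MPPs, -0.25 to -0.16 in GFP-high HSCs, -0.41 to -0.21 in GFP-low HSCs, -0.33 to -0.22 in GFP-high MPPs and -0.34 to -0.26 in GFP-low MPPs. The count of members with every KO library below every WT library, added after the data were seen, then ran from 5 to 11, 5 to 13, 13 to 21, 18 to 24, 14 to 23 and 17 to 24 in the same order. Some members near 0 changed sign. Ifit2 in HSCs was at 0.000189 with voom and ran from -0.16 to 0.147 with a replicate left out (0.0782 without WT replicate 1, 0.00439 and 0.147 without KO replicates 2 and 3), and in MPPs it ran from -0.0027 (without WT replicate 3) to 0.315. Ifitm2 in MPPs was at -0.0171 with libraries rescaled. In HSCs, Slfn2 ran from -0.42 to 0.0715 (without KO replicate 4), Ifi203 from -0.12 to 0.0154 (without KO replicate 3) and Isg20 from -0.0626 (without KO replicate 2) to 0.18.

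Libraries with the same replicate number did not deviate together in all pairs of any population (correlations of -0.116 to 0.285 between WT and KO within a population), so they were not used as pairs. With the replicate number as a block, 1 member was called in GFP-low MPPs (Gbp2, adjusted p = 0.0373; Parp9, 0.0615) and 0 elsewhere. Over all genes the calls also varied, in MPPs from 15 to 137 with the block, 560 in the joint fit, 205 without KO replicate 4 and 0 without WT replicate 2. Depth limits members with few reads, such as Ifit3, Mx1 and Ifi204.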

Other observations

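Gbp6 followed the replicate number in both genotypes of the reporter cohort, while in the first cohort only KO libraries stood far above the others. The pattern was noticed after its values were seen. In the first cohort KO replicates 1 and 2 were the highest in both cell types, at 2.67 and 1.88 FPKM in HSCs against at most 0.937 FPKM elsewhere, and at 9.49 and 7.8 FPKM in MPPs against at most 2.52 FPKM. The second entry under the same symbol did likewise, at 0.686 and 0.422 FPKM in HSCs and 1.65 and 1.47 FPKM in MPPs. In the reporter cohort replicate 1 was the highest of each genotype in all 4 fractions, for example 2.77 FPKM against 0.457 and 0.187 FPKM in WT GFP-low MPPs and 1.67 FPKM against 0.18 and 0.24 FPKM in KO. No test was made of this pattern, and the labels do not say whether libraries with the same number share a mouse or a litter.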
